A study of Mus musculus with 4 samples.

Results

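The genes described here make, break down and regulate the polyamines putrescine, spermidine and spermine, small positively charged molecules that bind RNA and other acidic partners. The 10 genes listed as members were Azin1, Azin2, Odc1, Oaz1, Oaz2, Amd1, Srm, Sms, Sat1 and Paox, and each was taken from the brightest probe set annotated to its symbol alone. Of these 10, 7 had such a probe set, among 22180 genes of the array that had one. Amd1 and Paox had none, and the probe set of Sms was shared with its pseudogene Sms-ps, so these 3 genes are not analysed here. Oaz1 and Oaz2 are antizymes, and Azin1 and Azin2 are antizyme inhibitors. The list was selected on the siNF45 minus siNTC differences of these same arrays, in which Azin1 was lower while enzymes of synthesis and breakdown differed less. The differences of the members are therefore given as a description, and the p-values given for them below are not read as a test.

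The study used Beta-TC-6, a mouse pancreatic beta cell line. In 2 samples (siNF45) the cells were transfected with a mixture of RNA duplexes against NF45, the protein that Ilf2 encodes and that pairs with binders of double-stranded RNA, and in 2 samples (siNTC) with a negative control siRNA. All 4 samples received the lipid reagent and were grown at the same high glucose, and total RNA of each was hybridised to 1 Affymetrix Mouse Gene 2.1 ST array. The labels name 1 cell line and 1 duplex mixture, and they leave unsaid whether replicates were transfected separately. The p-values thus reflect the spread between 4 samples, and that spread may be technical only.

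Polyamine synthesis starts with ornithine decarboxylase, which turns ornithine into putrescine. Antizymes bind single ornithine decarboxylase subunits, send them to the proteasome without ubiquitin and restrain polyamine uptake, and their full-length translation needs a ribosomal frameshift that polyamines stimulate. Antizyme inhibitors resemble ornithine decarboxylase but do not act as the enzyme, and by holding antizyme they leave ornithine decarboxylase free. Beta cells hold polyamines in and around their secretory granules, and hypusine, the modified amino acid that eIF5A needs, is built from spermidine.

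RefSeq promoter windows (assembly GRCm38.p6) were at hand for 7 of the 10 genes. The 250 bases before the start of both antizyme genes are shown. Oaz2 lay lower in siNF45, while its paralogue Oaz1 overlapped between the groups and gave no direction. The Oaz2 window lies at chr9:65676298-65676547 and the Oaz1 window at chr10:80826406-80826655, both on the plus strand. Capitals mark GC boxes, searched as GGGCGG on both strands, so that CCGCCC also counts.
Oaz2: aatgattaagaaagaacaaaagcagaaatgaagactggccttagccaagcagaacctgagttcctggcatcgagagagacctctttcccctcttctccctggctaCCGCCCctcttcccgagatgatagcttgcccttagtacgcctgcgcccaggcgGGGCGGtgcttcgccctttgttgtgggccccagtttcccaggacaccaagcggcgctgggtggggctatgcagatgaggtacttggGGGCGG
Oaz1: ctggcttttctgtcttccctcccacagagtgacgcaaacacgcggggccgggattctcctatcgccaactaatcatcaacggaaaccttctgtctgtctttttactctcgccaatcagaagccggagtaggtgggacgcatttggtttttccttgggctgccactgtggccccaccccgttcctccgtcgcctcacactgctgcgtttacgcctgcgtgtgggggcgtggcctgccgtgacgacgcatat
The Oaz2 window held 3 GC boxes and the Oaz1 window 0, with the same G and C content of 58.0%. A GC box was present in 32.7% of the 32851 windows in the RefSeq table. The E box CACGTG, the palindromic motif that Myc and its relatives are known to bind, was present in 6.02% of all windows. It was in neither antizyme window nor in that of Odc1, which held 4 GC boxes. Among the member windows it occurred 1 time, in the Sms window that held 0 GC boxes. Of the other members with windows, Sat1 held 2 GC boxes, Amd1 1, Paox 1 and 3, and Sms 0 and 4. A match in such a window describes its letters only, and a link between these matches and the array values was not tested.

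Medians over all probe sets were close, at 1.66 on both siNF45 arrays and 1.64 on both siNTC arrays on the log2 scale. Medians over the 11742 tested genes were lower on the siNF45 arrays, at 3.72 and 3.60 against 3.82 and 3.76 on the siNTC arrays. Across these tested genes, which are not independent replicates, replicates correlated at 0.988 (siNF45) and 0.989 (siNTC). Ilf2, the target of the knockdown, read 3.67 and 3.77 on the siNF45 arrays against 5.79 and 5.98 on the siNTC arrays, and fell by 2.17 on the log2 scale (SE 0.13, limma adjusted p = 0.020). Without any 1 array its difference was -2.26 to -2.07, with limma adjusted p of 0.307 to 0.471. All 8 beta cell markers with a probe set of their own passed the signal filter, with means over the 4 arrays of 5.10 to 10.1. Of the markers of exocrine and duct cells 1 of 7 passed it, which was Krt7, and of endothelial, immune and mesenchymal cells 3 of 12. Among other islet cell markers 5 of 6 passed. Their summed level (log2 of the sum) was 8.98 and 8.88 on the siNF45 arrays against 9.67 and 9.34 on the siNTC arrays, so it was lower on both siNF45 arrays. That sum was carried by somatostatin (Sst), which differed by -0.885, while glucagon (Gcg) differed by -0.02 with overlapping groups and Ppy by 0.515. The dim markers Irx1, close to the filter, and Irx2 differed by -0.55 and -0.39 and lay lower on both siNF45 arrays. The summed exocrine and duct level was 4.84 and 4.90 on the siNF45 arrays against 4.64 and 4.50 on the siNTC arrays. In it Krt7 differed by 0.665, while the duct markers Krt19 and Cftr, both under the filter, differed by -0.195 and 0. The summed endothelial, immune and mesenchymal level was 4.99 and 5.02 against 5.07 and 5.17, slightly lower on both siNF45 arrays. The summed beta cell level, 11.21 and 11.23 on the siNF45 arrays against 11.26 and 11.19 on the siNTC arrays, overlapped between the groups. That sum rests mostly on the bright markers Iapp and Slc30a8. The single beta cell markers differed by between -0.435 (Pcsk1, lower on both siNF45 arrays) and 0.175 (Ins2). The part of these marker shifts in the differences below was not tested, and in bulk RNA fewer cells of a type and less RNA per cell cannot be told apart.

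Azin1, which encodes the antizyme inhibitor that protects ornithine decarboxylase, read 4.98 and 5.08 on the siNF45 arrays against 5.75 and 5.73 on the siNTC arrays. Both siNF45 arrays lay far below both siNTC arrays, and the gap between groups was wide beside the gap within either pair. The means were 5.03 ± 0.07 in siNF45 and 5.74 ± 0.01 in siNTC (log2, SD, n = 2 each). The difference was -0.71 (SE 0.12), a level 1.64-fold lower in siNF45. Of the 11742 tested genes, 312 had a difference at or below that of Azin1, which is 2.66%. The array has 1 probe set for this gene. It gives no reading of RNA editing, by which the human AZIN1 protein is known to be altered.

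Azin2 encodes the second antizyme inhibitor, known mainly from brain and testis. It read 1.47 and 1.58 on the siNF45 arrays against 1.85 and 1.58 on the siNTC arrays. The groups met at 1.58, and the mean over all arrays was under the signal filter of 1.65, so this gene was left out of the fit across genes. Its difference was -0.19 (SE 0.14, from the fit without a filter), and a value this close to the dim end of the array cannot carry a direction.

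Of the antizymes, Oaz2 lay lower in siNF45 and Oaz1 overlapped between the groups. Oaz2 read 3.13 and 3.02 on the siNF45 arrays against 3.70 and 3.73 on the siNTC arrays, without overlap. Its means were 3.08 ± 0.08 in siNF45 and 3.72 ± 0.02 in siNTC (log2, SD, n = 2 each). The difference was -0.64 (SE 0.12), or 1.56-fold lower in siNF45, and 446 tested genes had a difference at or below it. A second, dimmer probe set of Oaz2 gave 3.33 and 2.02 on the siNF45 arrays against 3.64 and 4.15 on the siNTC arrays. It lay lower in siNF45 as well, by -1.22, but its siNF45 arrays disagreed by 1.31.

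Oaz1, the most widely studied antizyme, read 2.50 and 2.76 on the siNF45 arrays against 2.22 and 2.63 on the siNTC arrays. The groups overlapped. The difference of 0.205 (SE 0.18) was smaller than the gap of 0.41 between the siNTC arrays, and without siNTC replicate 1 it was 0, so no direction can be read from it. Another probe set carries the symbols of Oaz1 and of the pseudogene Oaz1-ps together and was not used here.

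**Figure D1:**
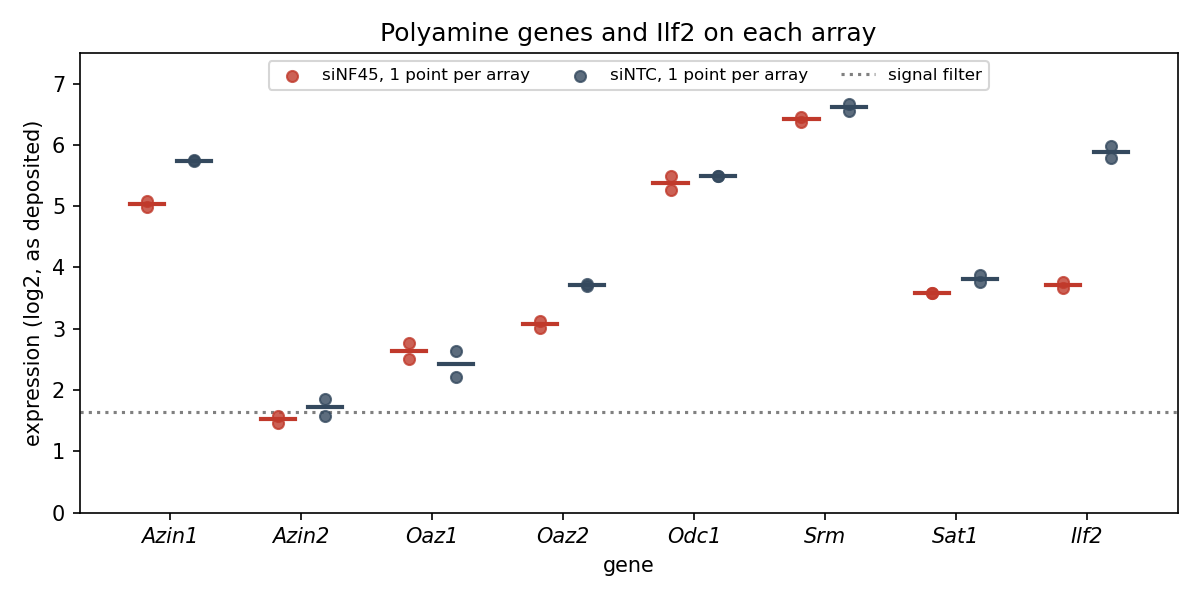
Deposited log2 expression of the 7 measured polyamine genes and of Ilf2 (horizontal axis) on each array, with siNF45 at the left and siNTC at the right of each gene; points are arrays and short bars are means of 2. Azin1 and Oaz2 stand clear of their siNTC arrays, Odc1, Oaz1 and Azin2 overlap, and the dotted line is the signal filter at 1.65.

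The enzymes differed less than Azin1. Odc1, the ornithine decarboxylase that antizyme targets, read 5.27 and 5.49 on the siNF45 arrays against 5.50 and 5.49 on the siNTC arrays. The second siNF45 array equalled a control array, and only the first lay lower. The difference was -0.115 (SE 0.13), and it became 0.015 when each array was centred on the median of the tested genes, a scaling that adds 0.13 to every difference.

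Srm, the spermidine synthase, read 6.45 and 6.38 on the siNF45 arrays against 6.67 and 6.56 on the siNTC arrays. The groups did not overlap, but the difference of -0.20 (SE 0.12) was small and was -0.07 after centring. Sat1, which acetylates spermidine and spermine for breakdown and export, read 3.58 on both siNF45 arrays against 3.88 and 3.76 on the siNTC arrays. Here too the groups were apart, with a difference of -0.24 (SE 0.12) that was -0.11 after centring.

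Against Odc1, Srm, Sat1 and Oaz1, the level of Azin1 was lower on both siNF45 arrays than on the siNTC arrays. The siNF45 minus siNTC difference of Azin1 relative to that of Odc1 was -0.535 on the first siNF45 array and -0.655 on the second, with a mean of -0.595. Relative to Srm it was -0.51, relative to Sat1 -0.47 and relative to Oaz1 -0.915. Relative to Oaz2 it was -0.07, from -0.175 on one siNF45 array and 0.035 on the other. The gap between the Azin1 and Oaz2 differences thus lay within the spread of the arrays. A shift common to all genes of an array cancels in these values. The list was chosen on the fall of Azin1 against the enzymes, so the values relative to Odc1, Srm and Sat1 restate that choice. They are not read as a test.

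**Figure D2:**
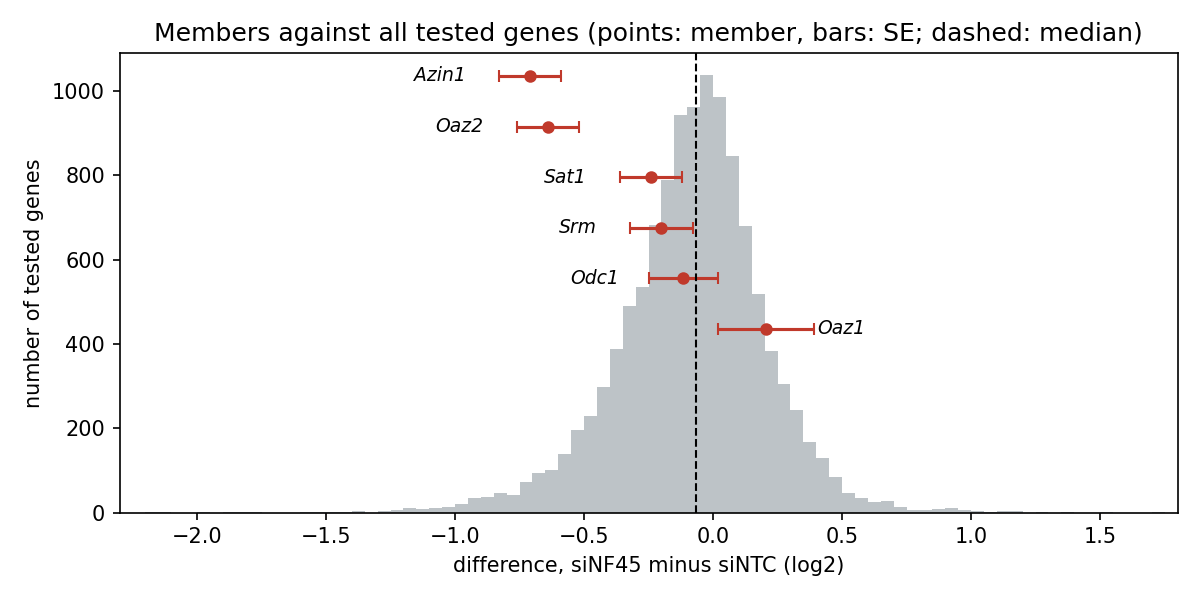
Histogram of the siNF45 minus siNTC difference (log2, horizontal axis) over the 11742 tested genes (vertical axis, number of genes), with the 6 members past the signal filter as points with SE bars at arbitrary heights. Azin1 at -0.71 and Oaz2 at -0.64 lie in the lower tail, and the other 4 lie within the bulk around the dashed median of all tested genes.

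Counted together, both siNF45 arrays were below both siNTC arrays for 4 of the 6 members past the filter (Azin1, Oaz2, Srm and Sat1), as they were for 32.6% of all tested genes, and above for 0 of 6, against 15.2%. With the values as deposited, no member was called at a limma adjusted p under 0.05, where 10 of the 11742 tested genes, or 0.0852%, were called. With an unadjusted p under 0.05, 2 of 6 were lower (Azin1 and Oaz2) and 0 higher, against 13.2% and 4.02% of all tested genes. Since this contrast chose the list, nothing is read from these counts. The median difference of the 7 measured members was -0.20, or -0.07 after centring. That of the 11742 tested genes was -0.065, or 0.065 after centring, and that of all 22180 genes without a filter was -0.005.

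**Figure D3:**
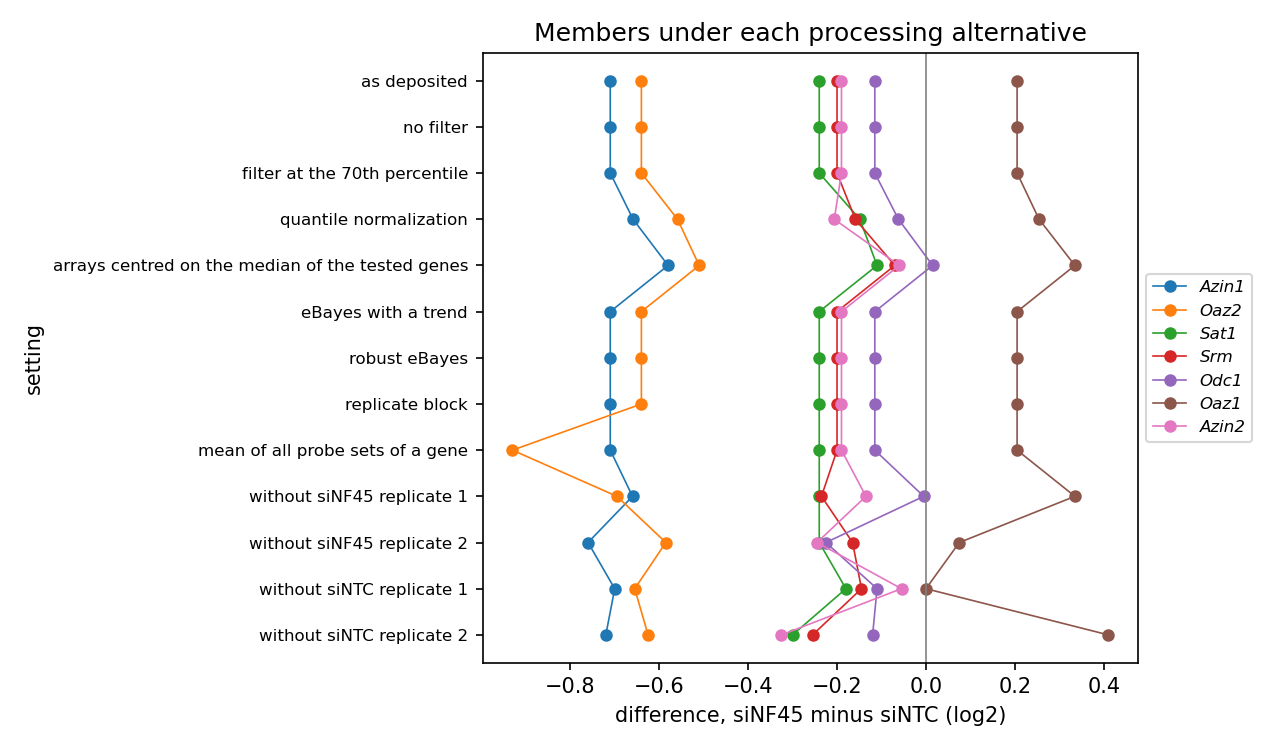
The siNF45 minus siNTC difference (log2, horizontal axis) of the 7 measured members under the values as deposited and 12 processing alternatives (rows). Azin1 stays between -0.76 and -0.58 and Oaz2 between -0.93 and -0.51, while Odc1 crosses 0 after centring and Oaz1 spans 0 to 0.41.

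Several genes followed Azin1 closely across the arrays. Over the 4 arrays, after each gene was centred on its own mean, the 5 tested genes nearest to Azin1 by Euclidean distance were Pgm3, Glce, Pcmt1, Plekhb2 and Pgam1, at distances of 0.017 to 0.073. Pgm3, an enzyme of UDP-N-acetylglucosamine synthesis, read 3.93 and 4.03 on the siNF45 arrays against 4.68 and 4.67 on the siNTC arrays, a difference of -0.695 (SE 0.12, limma adjusted p = 0.0960). Glce, an epimerase of heparan sulfate synthesis, differed by -0.75, and by -0.35 when its probe sets were averaged. Pcmt1, a repair enzyme that methylates damaged proteins, differed by -0.76, Plekhb2 by -0.67 and the glycolytic enzyme Pgam1 by -0.695. None of these 5 passed the adjusted threshold. Oaz2 was the 77th nearest of 11741 other genes, at a distance of 0.168, while Sat1 ranked 1932, Srm 2587, Odc1 3898 and Oaz1 10313. With 4 arrays this likeness mostly restates a difference of the same size.

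**Figure D4:**
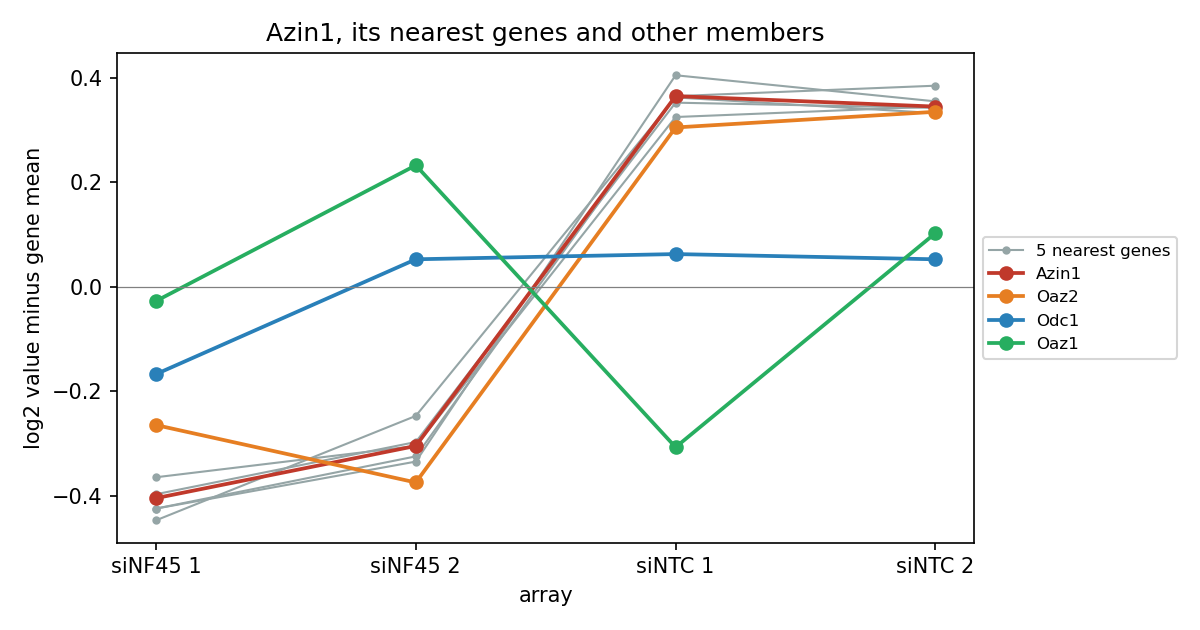
Log2 value minus the gene's own mean (vertical axis) on each of the 4 arrays (horizontal axis, siNF45 at the left) for Azin1, its 5 nearest genes and 3 other members; lines join the values of a gene and stand for no order. Azin1, its nearest genes and Oaz2 lie below 0 on both siNF45 arrays and above 0 on both siNTC arrays, while Odc1 and Oaz1 do not separate the groups.

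The wider polyamine pathway gave no called gene. Beyond the members, 8 lists named 79 genes, of which 51 passed the filter. Of these, 0 were called higher and 0 lower by limma (adjusted p under 0.05, against 0.00852% of all tested genes called higher and 0.0766% lower), and the smallest adjusted p was 0.126. An unadjusted p under 0.05 was reached by 1 gene higher and 8 genes lower in siNF45, or 17.6%, a share close to the 17.2% of all tested genes. After centring these were 3 higher and 4 lower, and without 1 array they numbered 3 to 5 in all (3 without siNTC replicate 1, 4 without siNF45 replicate 1, 5 without either other array). Their median difference was -0.06, against -0.065 over all tested genes, and after centring 0.07 against 0.065. Among all tested genes 472 were higher and 1550 lower at that level, a split of 756 and 1297 after quantile normalization and of 1251 and 869 after centring.

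Transport held 3 of the 8 lower genes, among 8 list members past the filter, where 13.2% of all tested genes were lower at that level. Slc7a1, which carries arginine and ornithine into cells, read 4.74 and 4.95 on the siNF45 arrays against 5.27 and 5.53 on the siNTC arrays, a difference of -0.555 (SE 0.15, limma adjusted p = 0.174). Atp13a2, the ATPase that exports polyamines from lysosomes, read 3.56 and 3.15 against 4.11 and 3.87, a difference of -0.635 (SE 0.18, limma adjusted p = 0.189). Its relative Atp13a3, also tied to polyamine uptake, read 6.20 and 5.78 against 6.50 and 6.64, a difference of -0.58 (SE 0.17, limma adjusted p = 0.202). For all 3 both siNF45 arrays lay below both siNTC arrays, as for 32.6% of all tested genes. These 3 kept an unadjusted p under 0.05 after quantile normalization and after centring. None of these 3 kept it in every fit without 1 array. In those fits the difference ran from -0.685 to -0.425 for Slc7a1, from -0.84 to -0.43 for Atp13a2 and from -0.79 to -0.37 for Atp13a3. The list median was -0.13, and its other 5 members lay between -0.21 and 0.065.

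**Figure D5:**
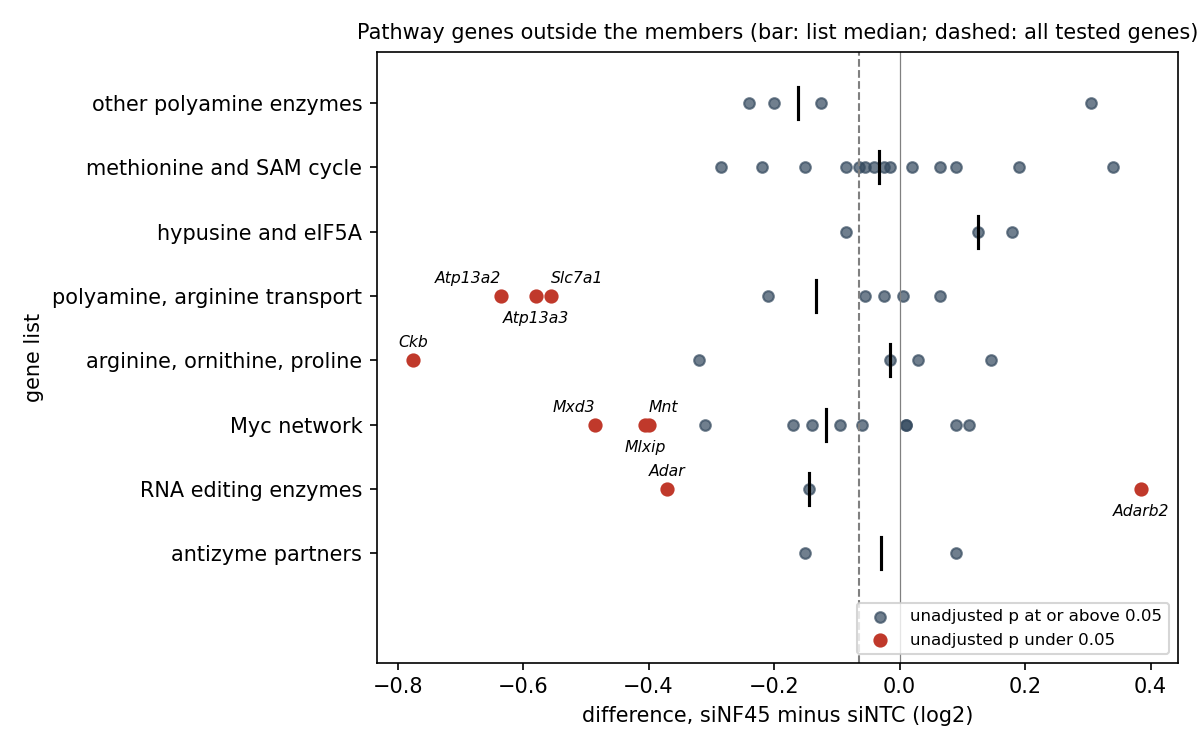
The siNF45 minus siNTC difference (log2, horizontal axis) of the 51 pathway genes outside the members, by list (rows); each point is a gene, and named points had an unadjusted p under 0.05. The 3 transporters and Ckb stand furthest to the left, and the methionine and hypusine lists have no named point.

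With the values as deposited, no gene of the lists that supply substrates was called, where 0.0852% of all tested genes were. In the arginine, ornithine and proline list, 1 of 5 measured genes was lower at an unadjusted p under 0.05, against 13.2% of all tested genes. This was Ckb, a creatine kinase rather than an enzyme of arginine or ornithine, at 5.01 and 5.33 on the siNF45 arrays against 6.01 and 5.88 on the siNTC arrays, a difference of -0.775 (SE 0.15, limma adjusted p = 0.126). Ornithine aminotransferase (Oat) differed by -0.32 (SE 0.15) and Aldh18a1, which makes the precursor of proline and ornithine, by 0.145 (SE 0.13).

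The list of methionine, S-adenosylmethionine and methylthioadenosine salvage, which feed the aminopropyl groups of spermidine and spermine, had 14 measured genes. Of these, 0 had an unadjusted p under 0.05, against 17.2% of all tested genes, and the median was -0.03. Those with the smallest p were Cth at -0.285, Ahcyl2 at 0.34 and Enoph1, a salvage enzyme, at -0.22. Among the 4 measured genes of the list of other polyamine enzymes, Sat2, a paralogue of Sat1, differed by 0.305 (SE 0.16) and Aldh9a1 by -0.20. Arginase Arg1, whose 4-array mean of 1.665 was close to the filter, differed by -0.24. Of these 4 genes, 0 had an unadjusted p under 0.05. Lists this short can hold few such genes at the share over all tested genes, so these counts are not read as a result.

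Of the genes downstream of spermidine, Eif5a, the factor that carries hypusine, read 5.59 and 5.72 on the siNF45 arrays against 5.49 and 5.46 on the siNTC arrays. It was slightly higher on both siNF45 arrays, with a difference of 0.18 (SE 0.12, limma adjusted p = 0.500). Deoxyhypusine synthase (Dhps) differed by -0.085, or 0.045 after centring. The paralogue Eif5a2 differed by 0.125, from 5.16 and 4.19 on the siNF45 arrays against 4.59 and 4.51 on the siNTC arrays, and its siNF45 arrays lay on either side of the controls. Among proteins known to be bound by antizyme other than ornithine decarboxylase, the mitotic kinase Aurka differed by -0.15 and the signal transducer Smad1 by 0.09.

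In the Myc network, 3 of 12 measured genes, all lower, had an unadjusted p under 0.05, against 13.2% of all tested genes, and the median was -0.12. After centring 0 of the 12 did, after quantile normalization 2, and without 1 array 0 to 2 (0 without siNF45 replicate 2 or siNTC replicate 1, 1 without siNF45 replicate 1). These were Mlxip, a glucose-responsive partner of Mlx, at -0.405 (SE 0.13, limma adjusted p = 0.218), and the Myc antagonists Mnt at -0.40 (SE 0.14) and Mxd3 at -0.485 (SE 0.19). Myc itself, a known activator of Odc1, was looked at after its values were seen. It read 2.70 and 2.85 on the siNF45 arrays against 3.21 and 2.96 on the siNTC arrays, a difference of -0.31 (SE 0.14, limma adjusted p = 0.345).

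The RNA editing enzymes were included because human AZIN1 is a known editing target. Adar read 3.43 and 3.31 on the siNF45 arrays against 3.83 and 3.65 on the siNTC arrays, a difference of -0.37 (SE 0.13, limma adjusted p = 0.245). Adarb2, a relative without known editing activity, differed by 0.385 (SE 0.15, limma adjusted p = 0.287) and Adarb1 by -0.145. Of the 3, 1 lower and 1 higher gene had an unadjusted p under 0.05, against 13.2% and 4.02% of all tested genes. For Adarb2 that p (limma) was 0.049 as deposited, 0.027 after quantile normalization, 0.013 after centring and 0.075 with a trend in the variance prior. For Adar it was 0.033 as deposited, 0.061 after quantile normalization, 0.120 after centring and 0.054 with the trend. Neither gene had such a p without siNF45 replicate 1, siNF45 replicate 2 or siNTC replicate 1.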

How the data were processed

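The table deposited by the authors holds log2 values of 41345 probe sets on 4 arrays. The tool was Transcriptome Analysis Console, per the submitters' processing notes. Not given in the sources used here are its version, the summarisation, any background correction and the log base, which was inferred as 2 from the range of values (0.12 to 12.21). Columns are named by sample and genes are not centred, so direction is settled by the labels. Platform annotation gave 1 symbol to 23521 probe sets, several to 1814 and none to 16010. Tested genes had a 4-array mean at or above 1.65 (the median probe set), with the brightest probe set per gene. The comparison used lmFit and eBayes of limma 3.58.1 under R 4.3.3 (2 residual and 3.69 prior degrees of freedom), with Benjamini-Hochberg adjustment over 11742 genes. The script was tested on simulated data. Named genes were all members, Ilf2, the 3 with the smallest p per list and the 5 nearest to Azin1. Members and lists were chosen with earlier results of these data known. Same-numbered arrays were not taken as pairs (correlation of deviations from group means 0.0062). The number of arrays limits precision. Alternatives were filters, normalization, the variance prior, a replicate block, averaged probe sets and leaving out each array. Protein sequences were not used here, nor were promoter windows of Azin1, Azin2 and Srm.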

Additional observations from a re-analysis of the deposited data

How the results depend on the processing

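Azin1 and Oaz2 kept their direction under all 12 alternatives, with Azin1 between -0.76 and -0.58 and Oaz2 between -0.93 and -0.51. Genes called numbered 10 as deposited, 174 with a trend, 172 after centring, 62 after quantile normalization, 87 at the 70th percentile filter and 0 with the replicate block, in which 1909 genes had an unadjusted p under 0.05. Without 1 array they numbered 0 in each of the 4 fits (0 to 0), where 1236 to 1670 genes had an unadjusted p under 0.05, and a lone array takes the spread of the other group. Pathway genes called outside the members numbered 0, and 1 (Ckb) with a trend, under which Glce, Pcmt1 and Pgam1 were called as well. With the trend 1 member, Azin1, was also called (limma adjusted p = 0.030). Since Azin1 was chosen from this contrast, nothing is read from that call. The members' median of -0.20 was -0.159 after quantile normalization, -0.07 after centring and -0.30 to -0.145 without 1 array. The pathway median of -0.06 was 0.000625 after quantile normalization, 0.07 after centring and -0.11 to -0.02 without 1 array. Directions turned for Odc1 (0.015) and Dhps (0.045) after centring, which adds 0.13 to each difference, for Aldh9a1 (0.03) and Smad1 (-0.08) without siNTC replicate 2, and for Eif5a2 (-0.36) without siNF45 replicate 1. Without 1 array, Aldh9a1 ran from -0.43 to 0.03, Smad1 from -0.08 to 0.26 and Eif5a2 from -0.36 to 0.61. No other member, listed gene with the smallest p or near gene of Azin1 turned, nor did Ilf2. Myc and the cell markers were not followed through the alternatives. Signal near the filter limits Azin2 and Arg1, and replicate gaps of 0.26 (siNF45) and 0.41 (siNTC) limit Oaz1.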
